A study of Rattus norvegicus with 24 samples.

Results

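The comparison described here set KIRA9 against its vehicle in rat INS1 cells 24 h after IRE1α had been switched on. INS1 cells come from a rat insulinoma and stand in for pancreatic beta cells. The cells carry a doxycycline-inducible IRE1α (Ern1) transgene, of mouse sequence per the series text. The comparison took 6 of the 24 libraries, chosen by the treatment and time in their titles: 3 from cells given doxycycline and KIRA9, and 3 from cells given doxycycline and drug vehicle. All 6 therefore carried the transgene and received doxycycline, and they differed by the compound. Uninduced cells, which carry the same transgene and received vehicle without doxycycline, and induced cells given PAIR1, a second compound directed at the IRE1α kinase, were used for reference at the same time. Each group held 3 libraries. The labels give no dose for either compound, do not say whether the line is a single clone, and do not say whether replicates were separate cultures. The p-values thus measure the spread between these libraries, which may be technical.

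IRE1α sits in the membrane of the endoplasmic reticulum and senses unfolded protein there. Its cytosolic part joins a kinase to an RNase. When it clusters, the RNase splices Xbp1 mRNA, whose product raises genes for protein folding and secretion, and under strong activation it also cuts other mRNAs at the endoplasmic reticulum, a process known as regulated IRE1-dependent decay. Beta cells depend on this pathway because they make large amounts of proinsulin, and forced IRE1α activity is known to harm them. KIRA compounds bind the kinase's ATP pocket and lower the activity of the RNase from there. PAIR compounds bind the same pocket and are described in the series title as partial antagonists.

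The deposited table pairs no gene name with its Ensembl gene IDs, and a RefSeq gene table (assembly GRCr8) matched 0 of its 26689 IDs. Genes are therefore not named, the gene lists for IRE1α outputs, beta cell identity, stress, death and other cell types were not read, and neither the level of the transgene nor the beta cell markers could be checked against the labels. The 4 IDs printed are those with the largest rises and the largest falls under a fixed rule. Totals of the 6 libraries ran from 13.9 to 20.4 M counts. Where no count was seen, up to 3 counts remain possible, which is 0.147 to 0.216 CPM (counts per 1 M counts). These limits cover counting error only. The time characteristic of the induced vehicle libraries contradicts their titles and column names, and the titles were used. One set of libraries stood apart by a block of IDs. In 6 of the 24 libraries, a block of 32 IDs, each at least 2-fold higher there than in every other library, held 0.605 to 0.680% of counts, against 0.0411 to 0.0563% in the other 18. Induced vehicle replicates 1 and 2 belong to these 6 and no KIRA9 library does, so results are also given without the 6. Uninduced replicates 1 and 3 at 24 h, neither among the 6, also differed widely. The chi-square of their counts per degree of freedom was 11.1, against 3.57 to 4.34 between KIRA9 replicates at 24 h.

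KIRA9 changed the level of most of the transcripts measured in induced cells. Of 13760 IDs tested, 4451 were higher and 4209 lower with KIRA9 than with vehicle, at an adjusted p below 0.05 in edgeR's quasi-likelihood test. These are 32.3% and 30.6% of the IDs tested, 62.9% in both directions. By the median, the called rises were larger than the called falls. The median called rise was 0.65 on the log2 scale and the median called fall -0.40. At least 2-fold changes were called for 1261 rising IDs (9.16%) and 434 falling IDs (3.15%), and at least 4-fold changes for 159 rising (1.16%) and 92 falling IDs (0.669%). Most falls were small: 2684 of the 4209, or 63.8%, were under 0.5 log2 units, against 1720 of the 4451 rises, or 38.6%. At the far end the order turned, with 35 falls and 19 rises of at least 3 log2 units. The largest fall was -10.32 and the largest rise 5.11. Many large falls rest on uneven replicates. Of the 92 falls of at least 4-fold, 55 had at least a 3-fold spread within a group, against 26 of the 159 rises. The 3 libraries of one group lay wholly above or below the 3 of the other for 9380 IDs, 68.2% of those tested, against the 62.9% called.

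Levels are relative to the other transcripts in these bulk libraries, and fewer cells of a kind and less RNA per cell cannot be told apart. With so many IDs changed, the balance of rises and falls depends on the scaling. TMM, used here, gave 51.4% of the calls as higher, upper-quartile scaling 39.5% and total counts alone 37.8%, because these move all log2 changes by a median of -0.12 and -0.14. The median sizes and size classes above were taken under TMM alone, so the same limit applies to them. The excess of rises among at least 2-fold changes held in both other scalings. Under upper-quartile scaling 1015 IDs rose and 568 fell at least 2-fold, and under total counts 977 and 601. At 4-fold the excess shrank, to 120 rises and 109 falls under upper-quartile scaling and 115 and 112 under total counts. Without the 6 libraries that stood apart, which leaves a single induced vehicle library assumed to vary like those of other groups, 3735 IDs were higher and 3309 lower, of which 1257 and 374 changed at least 2-fold.

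**Figure D1:**
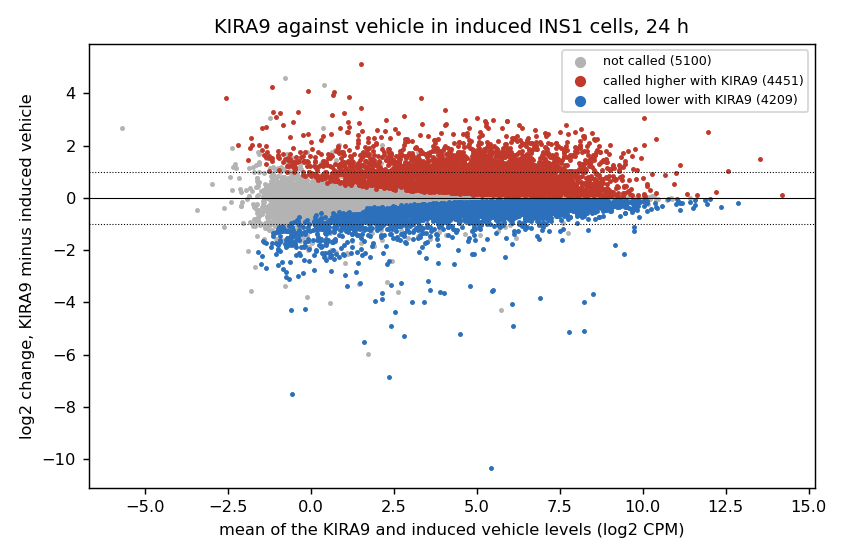
Each point is one of the 13760 IDs tested, with the log2 of the mean of its KIRA9 and induced vehicle CPM on the horizontal axis and its log2 change, KIRA9 minus induced vehicle at 24 h, on the vertical axis. Red points (4451) were called higher and blue points (4209) lower with KIRA9, grey points were not called, and dotted lines mark 2-fold changes. Large rises reach up to the most abundant IDs, whereas most large falls lie at low levels. Scarce IDs could pass the filter through a group in which they were higher.

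Among IDs that passed the filter, those called at least 4-fold higher were mostly of middle or high level, and those at least 4-fold lower mostly scarce. The filter on low counts can admit a scarce ID through any group in which it is high, such as induced vehicle. The scarcity of the falls is therefore a description, and nothing is read from it. The 159 IDs called at least 4-fold higher with KIRA9 had a median level of 8.21 CPM in induced vehicle cells and 43.9 CPM with KIRA9. Their median was 48.2 CPM in uninduced cells at 24 h, a group not used to choose them. The 92 IDs called at least 4-fold lower had a median of 4.34 CPM with vehicle, 0.548 CPM with KIRA9 and 1.25 CPM in uninduced cells. Of these 92, 50 were under 5 CPM in both groups, 55 had at least a 3-fold spread between the libraries of 1 group and 22 belonged to the block of 32 IDs. Of the 159, 37, 26 and 0 did. In the whole block 24 IDs were called lower with KIRA9 and 0 higher, where 30.6% of all IDs were lower. This direction follows from how the block was chosen, since it took IDs higher in 2 of the vehicle libraries than in any KIRA9 library, and nothing is read from it. Its share of counts was 0.615, 0.634 and 0.0432% in the vehicle libraries and 0.0458, 0.0447 and 0.0487% in the KIRA9 libraries, so that vehicle replicate 3 lay at the KIRA9 level. Without the 6 libraries, 29 of the 32 IDs could be tested and 6 of them (20.7%) were called, against 49.8% of all 14134 IDs tested in that fit. The cause of the block was not tested.

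Grouped by their level in uninduced cells at 24 h, a measure that neither group of the comparison enters, abundant IDs were called more often than scarce ones. In the class from 100 to 1000 CPM, 48.8% of 2228 IDs were higher with KIRA9 and 33.5% lower, with a median standard error of 0.04 on the log2 scale. In the class from 10 to 100 CPM, 37.0% of 7111 were higher and 35.2% lower. From 1 to 10 CPM these were 19.8% and 23.0% of 3286, with a median standard error of 0.20. The precision of the log2 change thus fell with the level. Which direction was more frequent in the 2 classes from 10 to 1000 CPM turned under the other scalings (906 higher and 1049 lower from 100 to 1000 CPM under total counts). For at least 2-fold changes it turned from 1 to 10 CPM, with 264 rises and 194 falls under TMM, 215 and 255 under upper-quartile scaling and 210 and 271 under total counts. It did not turn at higher levels: from 10 to 100 CPM, 610 IDs rose and 71 fell, against 479 and 100 under upper-quartile scaling and 457 and 111 under total counts. From 100 to 1000 CPM, 323 IDs rose at least 2-fold and 13 fell, against 269 and 13 under upper-quartile scaling and 261 and 13 under total counts. Among the 67 IDs at 1000 CPM and above, 13 rose at least 2-fold and 0 fell, and the deepest change was -0.48 on the log2 scale. Of the 1068 IDs under 1 CPM, 5.06% were higher and 16.8% lower. Such IDs could pass the filter on low counts through another group in which they were higher, so nothing is read from that balance.

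**Figure D2:**
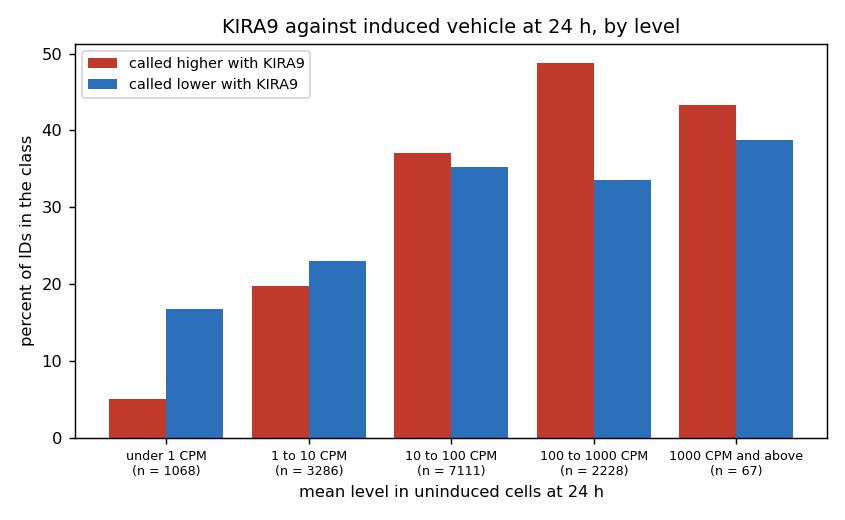
Bars give the percent of IDs in each class of mean level in uninduced cells at 24 h that were called higher (red) or lower (blue) with KIRA9 against induced vehicle at 24 h, with the number of IDs under each class. The share called either way is smallest under 1 CPM (5.06% and 16.8%).

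The called IDs held a large part of the scaled counts. The 4451 IDs called higher made up 32.8, 32.8 and 32.9% of scaled counts in the 3 induced vehicle libraries and 48.4, 48.2 and 48.1% in the 3 KIRA9 libraries. These libraries chose the IDs, so the gap is a description. In libraries that did not choose them, the same IDs held 47.2 ± 0.6% (SD, n = 3) in uninduced cells at 24 h, 44.3 ± 0.1% with PAIR1 at 24 h and 47.0 ± 0.2% in induced vehicle cells at 4 h. The 4209 IDs called lower held 46.0 ± 0.1% in induced vehicle libraries and 32.8 ± 0.2% with KIRA9. They held 33.7 ± 0.3% in uninduced cells and 36.1 ± 0.04% with PAIR1. The induced vehicle libraries at 24 h helped to choose both lists, so their distance from the other groups is a description too. In both lists the other groups printed lay within a few percentage points of each other.

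Library by library, KIRA9 cells were nearer to uninduced than to induced vehicle cells. The median absolute log2 difference over IDs was 0.354 to 0.380 for the 9 pairs of a KIRA9 and an induced vehicle library, and 0.153 to 0.190 for the 9 pairs of a KIRA9 and an uninduced library. Between replicates it was 0.087 to 0.097 within KIRA9, 0.0912 to 0.0936 within induced vehicle and 0.0920 to 0.141 within uninduced cells. KIRA9 and uninduced libraries thus differed from each other by more than their replicates did. PAIR1 libraries were 0.137 to 0.157 from KIRA9 and 0.294 to 0.316 from induced vehicle libraries. Between induced vehicle and uninduced libraries it was 0.361 to 0.378.

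The first principal component of the 24 h libraries, with 46.8% of their variance, also set the induced vehicle libraries apart. Induced vehicle libraries scored 54.2, 54.9 and 50.0, PAIR1 libraries 0.00403, -6.33 and -4.30, KIRA9 libraries -25.6, -25.5 and -24.8, and uninduced libraries -25.2, -21.3 and -26.1. KIRA9 and uninduced libraries overlapped on it and the induced vehicle libraries stood alone. The second component, with 11.1%, placed the KIRA9 libraries between -14.2 and -10.6 and the uninduced libraries between 11.9 and 35.3. On it, the 24 h libraries with the raised block stood above the others of their group: induced vehicle replicates 1 and 2 at 6.96 and 8.57 against -12.8 for replicate 3, PAIR1 replicate 1 at 8.13 against -16.8 and -14.1, and uninduced replicate 2 at 35.3 against 11.9 and 12. The part of these libraries in the gap between KIRA9 and uninduced cells on this component was not tested.

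**Figure D3:**
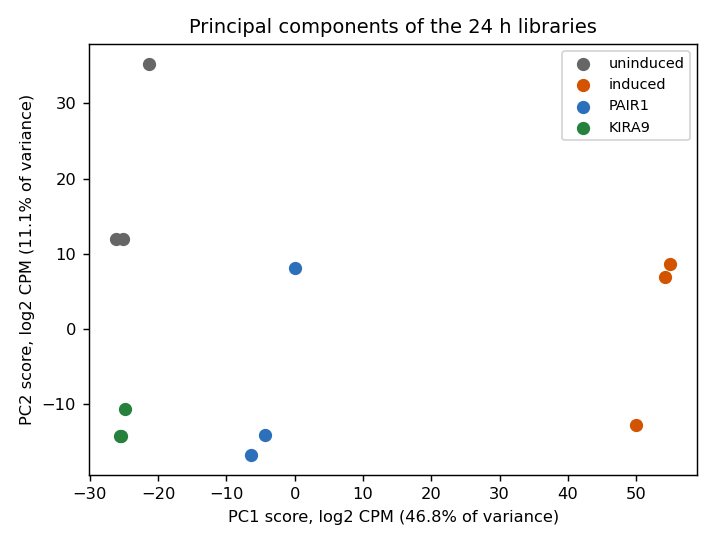
Points are the 12 libraries taken at 24 h, placed by their scores on the first and second principal components of log2 CPM over 13760 IDs. On the first component the 3 KIRA9 libraries (-25.6 to -24.8) lie among the uninduced libraries and the 3 induced vehicle libraries lie at 50.0 to 54.9.

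Tested directly, KIRA9 cells at 24 h differed from uninduced cells in fewer IDs and by less. Against uninduced cells 1735 IDs were higher (12.6%) and 1486 lower (10.8%), a total of 3221 or 23.4%. Of these, 45 were at least 2-fold higher (0.327%) and 103 at least 2-fold lower (0.749%). The median called changes were 0.29 and -0.26 on the log2 scale. For induction itself, induced vehicle against uninduced cells, 61.8% of IDs were called and 387 rose (2.81%) and 1257 fell (9.14%) at least 2-fold. These comparisons share libraries with each other, and their counts are set side by side only. The count against uninduced cells was 2070 when only these 6 libraries were fitted. With uninduced replicate 1, 2 or 3 left out it was 2840, 2900 or 3038. Of these, 2453, 2673 or 2699 shared their direction with the 3221.

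The 4 IDs picked by the rule behaved in different ways, and they are not the extremes of all called changes. The rule excludes IDs with at least a 3-fold spread within a group. Among called IDs with a mean of at least 5 CPM, 18 of the 20 largest falls and 4 of the 20 largest rises had such a spread. The rule also chose IDs by the gap between the KIRA9 and induced vehicle libraries at 24 h. For all 4 IDs the lack of overlap between these groups was therefore fixed by the rule. The size and p-value of that change, and tests that reuse either group, are descriptions. ENSRNOG00000012613 had the second largest rise under the rule. It stood at 30.9, 30.0 and 28.9 CPM in the KIRA9 libraries and at 2.80, 3.80 and 2.18 CPM in the induced vehicle libraries. In uninduced cells at 24 h it was at 30.2, 27.2 and 34.0 CPM, and with PAIR1 at 9.59, 11.4 and 7.86 CPM. The KIRA9 and uninduced libraries overlapped, the PAIR1 libraries lay below them, and the induced vehicle libraries lay lowest with no overlap. The rise from vehicle to KIRA9 was 3.36 ± 0.14 (SE) on the log2 scale, 10.3-fold, at an adjusted p in edgeR's test of 1.4e-15. Against uninduced cells the KIRA9 level differed by -0.03 ± 0.11 (95% interval -0.26 to 0.20, adjusted p = 0.90). At 4 h the group means lay between 28.9 and 32.8 CPM in all 4 groups, and the KIRA9 change was 0.11 ± 0.11 (adjusted p = 0.61).

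ENSRNOG00000019660 had the second largest fall under the rule, and induction had raised it at 24 h by 2.72 ± 0.38 on the log2 scale (adjusted p = 1.3e-06 in edgeR's quasi-likelihood test). Its level was 11.1, 10.5 and 11.3 CPM in the induced vehicle libraries and 0.552, 0.451 and 0.551 CPM in the KIRA9 libraries, the latter from 8, 7 and 11 counts. Uninduced libraries held 0.888, 1.95 and 2.21 CPM and PAIR1 libraries 1.82, 1.45 and 1.27 CPM. The induced vehicle libraries lay far above all others and the KIRA9 libraries below all others of that time. The fall was -4.38 ± 0.43 on the log2 scale, to a level 20.8-fold lower (adjusted p = 7.3e-09). The KIRA9 level was also below the uninduced level, by -1.66 ± 0.46 (adjusted p = 0.0099 in edgeR's quasi-likelihood test). The KIRA9 and induced vehicle libraries chose this ID, so this difference and that of induction are descriptions. At 4 h no group mean was above 1.04 CPM.

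The largest rise and the largest fall under the rule fell on IDs whose level varied widely between replicates of other groups. ENSRNOG00000037984 was at 15.1, 12.1 and 28.1 CPM with KIRA9 and 1.59, 1.00 and 1.24 CPM with vehicle, a rise of 3.82 ± 0.97 on the log2 scale (adjusted p = 0.0016 in edgeR's quasi-likelihood test). In uninduced cells at 24 h it stood at 14.1 CPM in replicate 1 and at 1.51 and 2.21 CPM in the others, and in induced vehicle cells at 4 h at 39.1, 44.9 and 12.5 CPM. High libraries thus occurred in both induced and uninduced cells. ENSRNOG00000050641 was at 0.276, 0.386 and 0.351 CPM with KIRA9 (4, 6 and 7 counts) and at 8.69, 9.61 and 22.1 CPM with vehicle, a fall of -5.28 ± 1.5 (adjusted p = 0.0040). Uninduced libraries at 24 h held 9.60, 0.440 and 12.3 CPM, and at 4 h each of the 4 groups held at least 1 library under 1 CPM and at least 1 above 5 CPM. Neither ID belongs to the block of 32. Among IDs with a mean of at least 5 CPM, 78 of 10950 had an over 8-fold spread within the KIRA9 or the induced vehicle group, and 29 of these (37.2%) were called, against 71.8% of the 10950. The spread within a group enters the test, so the lower share follows from how these IDs were chosen.

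**Figure D4:**
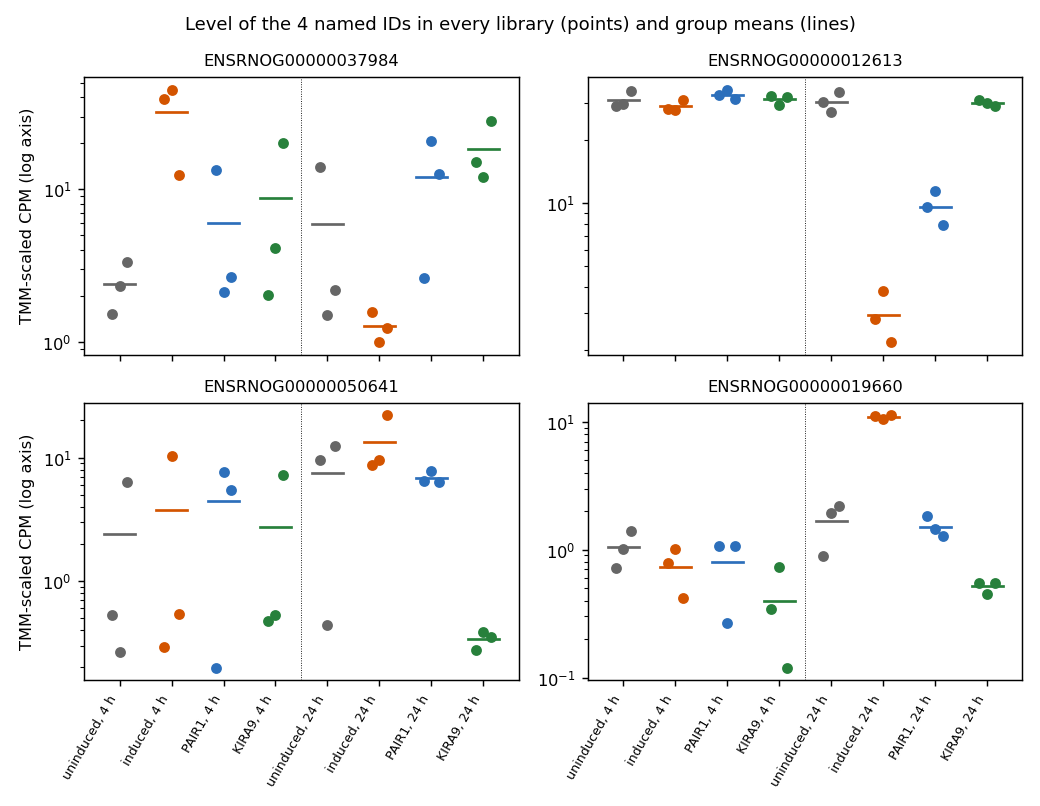
Each panel gives 1 of the 4 printed IDs, with TMM-scaled CPM on a log axis, 1 point per library and a line at the mean of each group of 3, for 4 h (left of the dotted line) and 24 h. For ENSRNOG00000012613 and ENSRNOG00000019660 the induced vehicle libraries at 24 h lie apart from all others, whereas ENSRNOG00000037984 and ENSRNOG00000050641 spread over more than a factor of 8 within at least 2 groups each. All 4 IDs were chosen by the gap between KIRA9 and induced vehicle at 24 h.

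The direct comparison of the compounds at 24 h asked where PAIR1 and KIRA9 left induced cells at different levels. It is 1 pair of treatments, and with no dose in the labels it compares them as applied. PAIR1 was higher than KIRA9 in 825 IDs (6% of those tested) and lower in 1418 (10.3%), in all 16.3%. Large differences were few: 28 IDs (0.203%) were at least 2-fold higher with PAIR1 and 67 (0.487%) at least 2-fold lower. Against the shared induced vehicle libraries, PAIR1 was called in 54.9% and KIRA9 in 62.9% of IDs. The scaling sets the balance here too, since 36.8% of the differences were higher with PAIR1 under TMM, 55.3% under upper-quartile scaling and 53.6% under total counts. For ENSRNOG00000012613 the PAIR1 level lay below the KIRA9 level, with a log2 difference of -1.64 ± 0.12 (adjusted p = 5.9e-10 in edgeR's quasi-likelihood test), and for ENSRNOG00000019660 it lay above by 1.52 ± 0.47 (adjusted p = 0.027). For ENSRNOG00000037984 the difference was -0.61 with a 95% interval from -2.22 to 1.00 (adjusted p = 0.67), and for ENSRNOG00000050641 it was 4.31 with an interval from 1.13 to 7.48 (adjusted p = 0.059). Neither was called. For ENSRNOG00000037984 the interval is too wide to show that the compounds left it at equal levels. For ENSRNOG00000050641 the interval, not adjusted for the number of IDs tested, lay wholly on the side of a higher PAIR1 level. The KIRA9 libraries helped to choose all 4 IDs, so these differences are descriptions.

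A comparison that shares no library with KIRA9 against vehicle is PAIR1 against uninduced cells at 24 h. It holds the effects of doxycycline, of the transgene and of PAIR1 together, which cannot be told apart here. In it 1881 IDs were higher (13.7%) and 1968 lower (14.3%). Of the 1968 lower with PAIR1, 1451 (73.7%) were among the IDs that KIRA9 raised over vehicle, against 32.3% of all IDs. They made up 32.6% of those 4451. Of the 1881 higher with PAIR1, 997 (53%) were among the IDs that KIRA9 lowered, against 30.6% of all IDs. They made up 23.7% of those 4209. In the opposite directions, 475 of the 1881 (25.3%) were raised by KIRA9 and 231 of the 1968 (11.7%) were lowered by it. The median difference of PAIR1 from uninduced cells was -0.09 log2 units over the IDs that KIRA9 raised, 0.07 over those it lowered and -0.0013 over all IDs tested.

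At 4 h KIRA9 had changed far less. Against induced vehicle cells of that time, 827 IDs were higher (6.01%) and 779 lower (5.66%), of which 57 (0.414%) and 16 (0.116%) changed at least 2-fold. The effect itself differed between the times in 6845 IDs (49.7%), 3764 (27.4%) more positive and 3081 (22.4%) more negative at 24 h, by a test of the difference in the same model. The 4 h and 24 h comparisons share no library. Of all IDs tested, 32.3% were raised and 30.6% lowered by KIRA9 at 24 h. Of the 827 IDs raised at 4 h, 534 (64.6%) were also raised at 24 h, 12% of the 4451, and 140 (16.9%) were lowered at 24 h. Of the 779 lowered at 4 h, 445 (57.1%) were also lowered at 24 h, 10.6% of the 4209, and 198 (25.4%) were raised. Over all IDs raised at 24 h the median change at 4 h was 0.03 log2 units, and over those lowered at 24 h it was -0.04. Most IDs called at 24 h were thus not called at 4 h. Without the 6 libraries that stood apart, 966 IDs were called at 4 h in place of 1606.

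**Figure D5:**
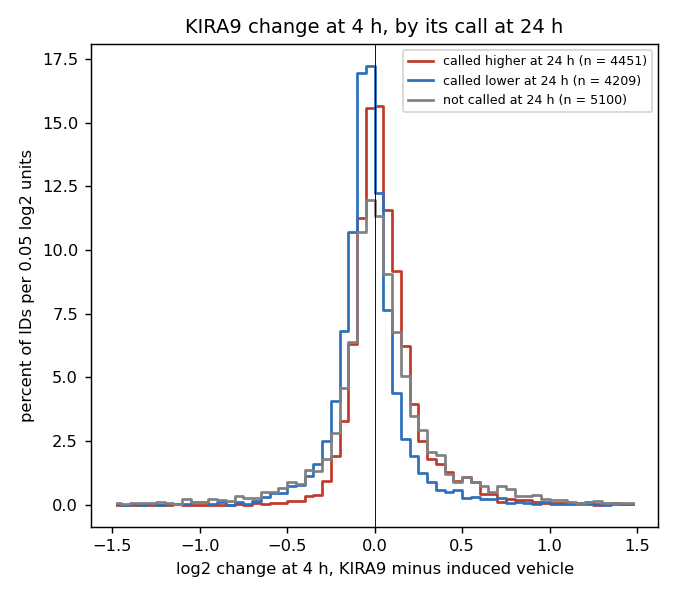
Lines give the distribution of the log2 change at 4 h, KIRA9 minus induced vehicle, as percent of IDs per 0.05 log2 units, for IDs called higher (red, n = 4451), called lower (blue, n = 4209) and not called (grey, n = 5100) at 24 h. The red and blue lines overlap over most of their range, with medians of 0.03 and -0.04.

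The earliest changes made by induction were met at 24 h by KIRA9 in the opposite direction. Induction at 4 h, a comparison of libraries not used in the 24 h one, lowered 36 IDs (0.262%) and raised 5 (0.0363%). Of the 36, 35 were higher with KIRA9 than with vehicle at 24 h, where 32.3% of all IDs were, and 0 were lower. Their log2 changes ran from 0.16 to 2.07 with a median of 1.19. Of the 5 raised at 4 h, 4 were lower with KIRA9 at 24 h, where 30.6% of all IDs were, with a median change over the 5 of -0.75 and a range from -0.97 to -0.06.

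The conflicting time label touches each comparison above that uses induced vehicle libraries. With that characteristic in place of the title, the 24 h comparison called 4218 IDs and the 4 h comparison 8939. The rise of ENSRNOG00000012613 then became 0.05 on the log2 scale (adjusted p = 0.79 in edgeR's quasi-likelihood test). As titled, induced vehicle and uninduced libraries at 4 h differed by a median of 0.0916 to 0.114 log2 units, against the 0.361 to 0.378 at 24 h given above.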

How the data were processed

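The values deposited by the authors are whole-number read counts for each Ensembl gene ID, not normalized, in 24 poly(A) libraries (8 groups of 3). Per the submitters' processing notes, the tools named are HISAT2 and HTSeq. Their settings, the genome build, the annotation and the use of strand are not given in the sources used here. Reads of genes that overlap or are near copies can therefore have been mixed. Groups follow the sample titles. Library totals ran from 12.6 to 23.8 M counts. IDs were kept with filterByExpr (minimum count 10), which left 13760 of 26689, and scaled by TMM. One edgeR 4.0.16 (R 4.3.3) quasi-likelihood model with 8 group means was fitted to all libraries. P-values were adjusted by Benjamini-Hochberg over all kept IDs and called below 0.05. The standard error is the log2 change divided by the root of F. Principal components and library distances used log2 CPM with a prior count of 2. The procedure was also run on simulated data in which only a small part of the IDs was changed. That run cannot test the scaling under changes as broad as those found here.

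The printed IDs are the 2 largest rises and 2 largest falls among called IDs averaging 5 CPM or more in the group where they were higher, with no overlap between groups and under 3-fold spread within each. The rule's condition on gene symbols, its other parts and 29 gene lists could not be applied. Members and lists were chosen with earlier results of these data known. The alternatives were other scalings, DESeq2 1.42.0, no filter, the compared libraries alone, a replicate block, a stricter threshold, the other time label, and libraries left out.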

Additional observations from a re-analysis of the deposited data

Results flagged for a closer look

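The effect of KIRA9 against induced vehicle differed between 24 h and 4 h in 6845 of the 13760 IDs by a test of the difference between the times. With the other time label for the induced vehicle libraries, 409 of these calls kept their direction among 7879. All 4 printed IDs were among the 6845, and the 24 h libraries that chose them enter this test. The difference, 24 h minus 4 h, was 3.25 ± 0.18 (SE) on the log2 scale for ENSRNOG00000012613 and -3.48 ± 0.72 for ENSRNOG00000019660. It was 5.68 ± 1.26 for ENSRNOG00000037984 and -4.93 ± 1.96 for ENSRNOG00000050641, whose replicates spread widely in the 4 h groups.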

How the results depend on the processing

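The count for KIRA9 against induced vehicle at 24 h stayed within 1.5 times 8660 under each alternative run except the other time label (4218). It was 8396 with DESeq2, 8399 with no filter, 7044 without the 6 libraries and 8137 to 8194 with any 1 of its 6 libraries left out. With 1 library left out, the counts ran from 2591 to 3038 for KIRA9 against uninduced cells, 7965 to 8178 for induction, 1776 to 1932 for PAIR1 against KIRA9, 1128 to 1324 for KIRA9 at 4 h and 6462 to 6583 for the difference between times. At an adjusted p below 0.01 the count was 2063 for KIRA9 against uninduced cells, 1426 for PAIR1 against KIRA9 and 884 for KIRA9 at 4 h. Fitting only the compared libraries gave 2070 for KIRA9 against uninduced cells, and leaving out the 6 libraries gave 966 for KIRA9 at 4 h. With the other time label, induction at 24 h gave 3787, KIRA9 at 4 h 8939, and the difference between times 7879, of which 409 shared their direction with the 6845. ENSRNOG00000037984 turned to -0.79 on the log2 scale (adjusted p = 0.47 in edgeR's quasi-likelihood test). None of the 4 printed IDs was then called, and all 4 were called in their direction under every other alternative run. Those runs reuse libraries that chose the IDs. The replicate block gave 8645 calls for KIRA9 against induced vehicle at 24 h, of which 8543 were shared in direction with the 8660, and changed no call of the printed IDs. No pairing of these libraries by replicate number was seen. Deviations of same-numbered KIRA9 and induced vehicle libraries correlated over IDs at 0.0137, -0.00171 and -0.0206. Scaling by total counts or upper quartile moved the share of higher calls by over 10 percentage points for KIRA9 against induced vehicle at 24 h (37.8% and 39.5%, from 51.4%), induction (61.3% and 58.5%, from 48.2%), PAIR1 against KIRA9 (53.6% and 55.3%, from 36.8%) and the difference between times (38.4% and 41.4%, from 55%). Alternatives for the gene lists were not run, since no ID had a symbol. Depth limits IDs under 1 CPM, where the median standard error was 0.47 log2 units.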
